A study of Mus musculus with 4 samples.

Results

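The 9 genes studied here mark T cells and natural killer (NK) cells, and their transcripts were followed across the primary tumor and the lung of mice carrying the 4T1 mammary carcinoma. The members, taken by their symbols among the 19465 genes measured, were the CD3 chain genes Cd3e and Cd3d, the coreceptor genes Cd4 and Cd8a, the T-box transcription factor genes Eomes and Tbx21, the granule gene Nkg7, the regulatory T cell gene Foxp3 and the costimulatory receptor gene Cd28. All 9 members were found, and UMIs (unique molecular identifiers, each counting 1 captured molecule) were taken in the 9339 of 9445 spots that held more than 200 detected genes. Both mice were of the BALB/c genotype and had 100000 cells of 4T1, a mouse line that forms metastases in the lung of this strain, placed in the mammary fat pad at 8 weeks of age, with sacrifice 28 days later. Each mouse (A and B, from the numbers in the labels) gave 1 section of the primary tumor and 1 section of the lung, cut at 4 micrometres from fixed, paraffin-embedded tissue and profiled by the 10x Visium probe assay, so each tissue has n = 2 sections from the same 2 animals. No mouse without tumor cells was among the samples, and whole lung sections were taken, so the lung values mix metastatic foci with the surrounding lung. A spot covers several cells of different types, and fewer T cells in a spot cannot be told apart from less RNA per T cell.

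The T cell receptor recognizes peptides on MHC molecules and signals through the CD3 chains, among them those encoded by Cd3e and Cd3d, which are carried by T cells. CD4 binds MHC class II and marks helper and regulatory T cells, while CD8 binds MHC class I and marks cytotoxic T cells. Eomes and T-bet (Tbx21) direct the cytotoxic programs of CD8 T cells and NK cells, NKG7 is a membrane protein of their cytotoxic granules, FOXP3 defines regulatory T cells and CD28 delivers the second signal for T cell activation. In a tumor these genes are read as signs of lymphocyte infiltration, and in the normal lung as signs of resident and circulating lymphocytes.

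Cd3d (chr9:44981786-44987339, plus strand) and Cd3e (chr9:44998740-45009627, minus strand) are neighbors on GRCm38, the build that corresponds to the mm10 of the files, with 11.4 kb between their 3′ ends. Cd3g, the gene of the third CD3 chain, starts 1.36 kb from the start of Cd3d on the opposite strand (chr9:44969572-44980431). Eomes lies on the same chromosome (chr9:118478212-118486132). Cd4 (chr6:124864692-124888221) and Cd8a (chr6:71373427-71379173) share another one. The remaining members are Cd28 (chr1:60716800-60773359), Nkg7 (chr7:43437073-43438249), Tbx21 (chr11:97098071-97115331) and Foxp3 (chrX:7573644-7595245), and the annotation lists every member as protein coding. The promoters of Cd3d and Cd3e (250 bases before to 50 after the start, RefSeq, GRCm38.p6, 5′ to 3′ on the strand of the gene) are printed because of the ratio of these neighbors. It was higher in both lung sections than in both primary tumor sections, with limits described further on. Capitals mark the ETS core letters GGAA and their reverse complement, and 7 of the 9 members matched an entry of the promoter table.
Cd3d (chr9:44981536-44981835): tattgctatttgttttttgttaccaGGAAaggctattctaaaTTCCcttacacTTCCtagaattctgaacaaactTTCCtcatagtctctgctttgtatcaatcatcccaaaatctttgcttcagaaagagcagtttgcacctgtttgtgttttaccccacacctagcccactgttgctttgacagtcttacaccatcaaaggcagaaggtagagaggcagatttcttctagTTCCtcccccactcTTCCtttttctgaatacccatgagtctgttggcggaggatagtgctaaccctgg
Cd3e (chr9:45009562-45009861): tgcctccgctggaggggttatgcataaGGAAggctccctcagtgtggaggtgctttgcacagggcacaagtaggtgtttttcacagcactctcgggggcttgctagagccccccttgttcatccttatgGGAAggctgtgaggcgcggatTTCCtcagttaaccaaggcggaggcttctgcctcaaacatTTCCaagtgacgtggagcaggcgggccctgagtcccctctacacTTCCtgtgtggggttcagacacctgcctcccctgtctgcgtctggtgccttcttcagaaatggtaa

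The letters GGAA occurred 6 times in the Cd3d promoter and 5 times in that of Cd3e on both strands together, against a mean of 3.52 over 27025 mouse promoters, of which 95.9% held them at least once. The E-box letters CANNTG occurred once for Cd3d and 2 times for Cd3e, and 72.1% of promoters held them. GATA was found 2 times for Cd3d, was not found for Cd3e, and was present in 58.3% of promoters. Neither window held the RUNX core TGTGGT (present in 16.9% of promoters) or the TATA letters TATAAA (14.2%). These matches describe the letters of the windows and no binding was measured. Overlapping matches were counted.

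The kept spots gave 13532158 UMIs for the primary tumor of mouse A (2490 spots, median 2931 UMIs per spot) and 10890154 for that of mouse B (2372 spots, median 1820). The lungs gave 11122812 UMIs in mouse A (1697 spots, median 6555) and 30240176 in mouse B (2780 spots, median 9174.5). The labels of the tissues were matched by their marker genes, since 7 alveolar genes summed to 12252 and 6884 CPM (UMIs per 1000000 UMIs of the section) in the lungs against 13.5 and 44.0 CPM in the primary tumors. Genes tied to 4T1 cells (6 genes, Mmp3 and Plau among them) were at 4416 and 5126 CPM in the primary tumors, at 97.3 CPM in the lung of mouse A and at 1139 CPM in the lung of mouse B. Background was read from 1191 genes for olfactory, vomeronasal and trace amine receptors, which neither tissue is known to use. Their median was 8 UMIs in the primary tumor of mouse A, 2 UMIs in the lung of mouse A, 4 in that of mouse B, and 72 UMIs in the primary tumor of mouse B, where they took 0.935% of all UMIs against 0.0184% to 0.0879% in the other sections. The primary tumor of mouse B therefore stands apart, and each result below that rests on it is given with this in view. All intervals are 95% exact intervals (Poisson for CPM, Clopper-Pearson for shares and ratios) and cover counting error only. Probes differ in number and capture between genes, so a level was compared between sections and not between genes.

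Cd3e and Cd3d were the members with the most UMIs, except in the primary tumor of mouse B. There Cd28 gave 112 UMIs and Cd3d 103. Cd3e gave 290 UMIs in the primary tumor and 276 in the lung of mouse A, and 118 and 234 in those of mouse B. As a level this was 24.8 CPM (22.0 to 27.9) in the lung of mouse A, 21.4 (19.0 to 24.0) in its primary tumor, 10.8 (8.97 to 13.0) in the primary tumor of mouse B and 7.74 (6.78 to 8.80) in its lung. The order therefore followed the mouse and not the tissue, and the first 2 of these levels did not differ beyond their counting intervals. Cd3d, the neighboring gene, gave 140 and 496 UMIs in the primary tumor and lung of mouse A and 103 and 414 in those of mouse B. Its level was 44.6 CPM (40.8 to 48.7) in the lung of mouse A, 13.7 (12.4 to 15.1) in the lung of mouse B, 10.3 (8.70 to 12.2) in the primary tumor of mouse A and 9.46 (7.72 to 11.5) in that of mouse B. Both lungs were above both primary tumors, and the primary tumors did not differ beyond counting error.

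The coreceptor genes gave fewer UMIs than Cd3e and Cd3d in each section. Cd4 gave 87 and 106 UMIs in the primary tumor and lung of mouse A and 74 and 90 in those of mouse B, or 6.43, 9.53, 6.80 and 2.98 CPM. The primary tumors lay between the lungs, so the tissues overlapped. Cd8a gave 111 UMIs (8.20 CPM, 6.75 to 9.88) in the primary tumor and 24 (2.16 CPM, 1.38 to 3.21) in the lung of mouse A. In mouse B it gave 76 UMIs (6.98 CPM, 5.50 to 8.73) in the primary tumor and 38 (1.26 CPM, 0.889 to 1.72) in the lung. Both primary tumors were thus above both lungs for Cd8a, but the level in the primary tumor of mouse B was above only 54.0% of the receptor genes of that section.

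The transcription factor genes were near the limit of detection. Eomes gave 35, 23, 48 and 17 UMIs in the primary tumor A, lung A, primary tumor B and lung B, or 2.59, 2.07, 4.41 and 0.562 CPM. Tbx21 gave 12, 3, 20 and 5 UMIs in the same order, or 0.887, 0.270, 1.84 and 0.165 CPM. Tbx21 was inside the background in every section, being above 74.1%, 64.9%, 3.44% and 61.3% of the receptor genes. Nkg7, the granule gene shared by cytotoxic T cells and NK cells, gave 82, 38, 49 and 58 UMIs, or 6.06, 3.42, 4.50 and 1.92 CPM, with the primary tumors above the lungs. Less the receptor median of each section, the mean of Nkg7 was 2.51 CPM in the lung and 1.68 CPM in the primary tumor. That turn rests on the primary tumor of mouse B, at -2.11 CPM, since in mouse A the primary tumor remained above the lung, at 5.47 against 3.24 CPM. The value of Nkg7 in the primary tumor of mouse B was again within background, above 21.7% of the receptor genes. Foxp3 gave 13, 25, 32 and 17 UMIs, or 0.961, 2.25, 2.94 and 0.562 CPM, and Cd28 gave 52, 57, 112 and 51 UMIs, or 3.84, 5.12, 10.3 and 1.69 CPM. For both genes the tissues overlapped and the highest level was that of the primary tumor of mouse B, the section with the highest background.

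Read against the 95th percentile of the receptor genes of the same section (23, 6, 207 and 12 UMIs), 7 of the 9 members were above it in the primary tumor and 8 in the lung of mouse A. In the lung of mouse B 8 were above it, and 0 in the primary tumor of mouse B. The members below it in the primary tumor of mouse A were Tbx21 and Foxp3, and in each lung Tbx21 alone. In the primary tumor of mouse B even Cd3e, the member with the most UMIs there, exceeded only 85.1% of the receptor genes. T and NK cell transcripts were therefore not detectable above background there, gene by gene.

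**Figure D1:**
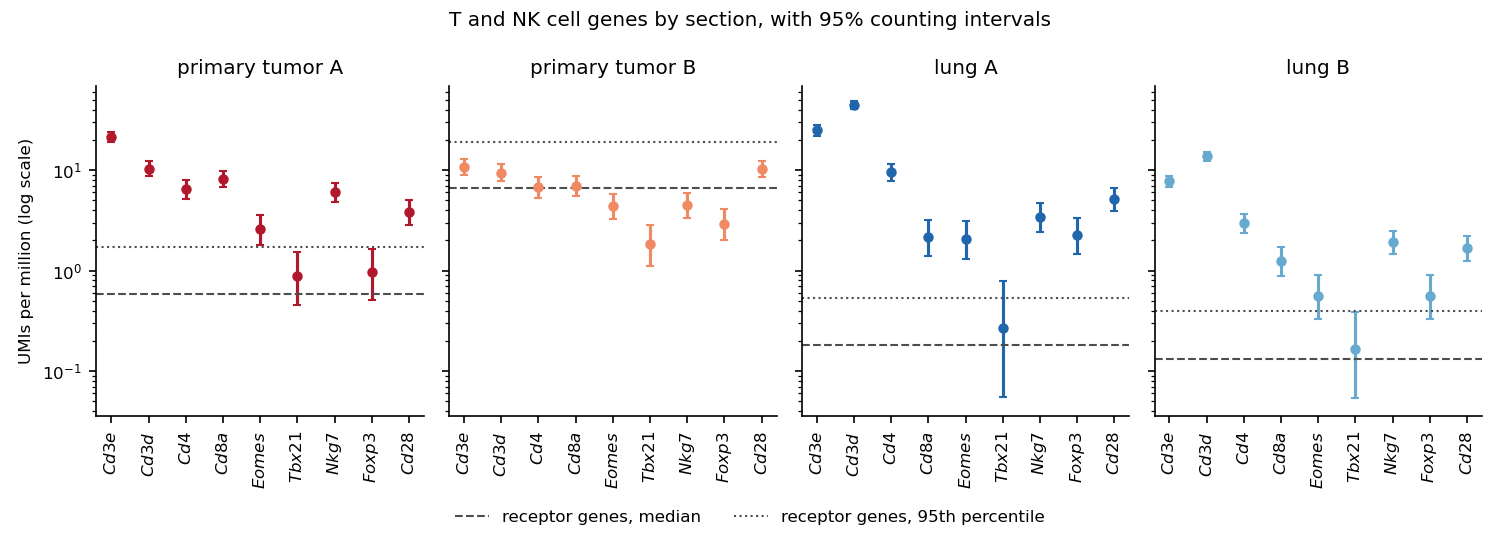
Level of each member in CPM (log axis) in each of the 4 sections, with 95% Poisson intervals; the dashed and dotted lines are the median and the 95th percentile of 1191 receptor genes in that section. Cd3e and Cd3d stand well above both lines in 3 sections, while all 9 members lie below the dotted line in the primary tumor of mouse B.

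By spot, UMIs of the members were scattered. A UMI of Cd3d was found in 24.0% (22.0 to 26.1) of the lung spots of mouse A, 13.5% (12.2 to 14.8) of those of mouse B, and 4.94% and 4.01% of the primary tumor spots of mice A and B. Cd3e was found in 14.2% and 7.95% of the spots of the lungs and in 9.28% and 4.72% of those of the primary tumors. No spot held more than 4 UMIs of either gene. Since the lung spots were deeper, the share was also taken after thinning each spot to 1000 UMIs, which left out 886 and 56 primary tumor spots and 10 and 5 lung spots of mice A and B. Thinned, Cd3d was found in 4.68% (3.72 to 5.80) and 1.73% (1.28 to 2.29) of the lung spots and in 1.37% (0.861 to 2.07) and 1.77% (1.27 to 2.39) of the primary tumor spots. The share in the lung of mouse A remained above the others, while that in the lung of mouse B no longer differed from the primary tumors beyond counting error. Thinned shares of Cd3e were 2.67% and 1.12% in the lungs and 2.06% and 2.12% in the primary tumors.

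Ratios between genes were taken within each section, where both genes share its depth. The ratio of Cd3d to Cd3e and that of Cd4 to Cd8a separated the lungs from the primary tumors beyond their counting intervals. Cd3d was measured at 0.483 UMIs per UMI of Cd3e (0.392 to 0.593) in the primary tumor of mouse A and 0.873 (0.664 to 1.15) in that of mouse B. In the lungs the ratio was 1.80 (1.55 to 2.09) and 1.77 (1.5 to 2.09). The 2 lungs were alike within counting error, and both were above both primary tumors. Both genes were within background in the primary tumor of mouse B. Cd3g went the other way, with 1.23 and 0.983 UMIs per UMI of Cd3e in the primary tumors against 0.565 and 0.534 in the corresponding lungs. Trac, the constant part of the T cell receptor alpha chain, stayed between 0.775 and 0.941 UMIs per UMI of Cd3e in the 4 sections. Cd3g and Trac were set against Cd3e after their values had been seen.

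Cd4 was measured at 0.784 UMIs per UMI of Cd8a (0.585 to 1.05) in the primary tumor of mouse A and at 4.42 (2.81 to 7.20) in its lung. In mouse B the ratio was 0.974 (0.697 to 1.36) in the primary tumor and 2.37 (1.60 to 3.56) in the lung. Both lungs thus held more Cd4 than Cd8a UMIs, and the intervals of lungs and primary tumors did not overlap. Both genes were within background in the primary tumor of mouse B, at 74 and 76 UMIs against a receptor median of 72, so the ratio there cannot be read as one of T cells. Taking the receptor median off both counts gave 0.767 in the primary tumor of mouse A, 4.73 in its lung and 2.53 in the lung of mouse B. The ratio of Foxp3 to Cd4 was 0.149, 0.236 and 0.189 in the primary tumor A, lung A and lung B, with overlapping intervals. It was 0.432 in the primary tumor of mouse B, where both genes were within background. In the order primary tumor A, lung A, primary tumor B and lung B, the ratio of Cd28 to Cd3e was 0.179, 0.207, 0.949 and 0.218, and that of Nkg7 to Cd3e was 0.283, 0.138, 0.415 and 0.248. The ratio of Eomes to Tbx21 was 2.92, 7.67, 2.40 and 3.4, with wide intervals. For each of these 3 ratios the interval of at least 1 primary tumor overlapped that of a lung. With 2 sections against 2 an exact permutation test cannot go below p = 0.333, so these ratios carry counting intervals and no test between the tissues.

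**Figure D2:**
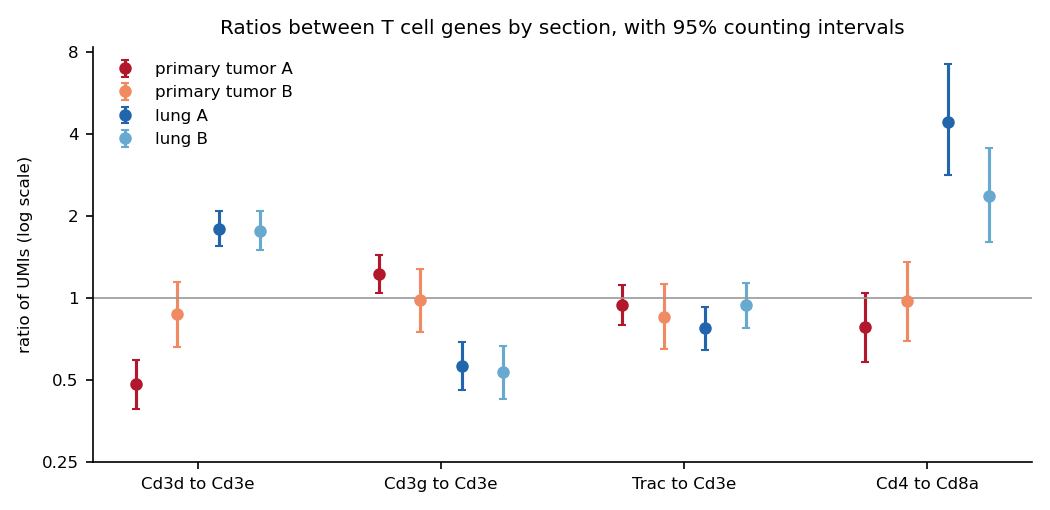
Ratio of the UMIs of the first gene to those of the second (log axis) in each section, with 95% Clopper-Pearson intervals. Cd3d to Cd3e is 1.77 and 1.80 in the lungs and 0.483 and 0.873 in the primary tumors, while Trac to Cd3e stays between 0.775 and 0.941.

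Summed counts of the lung and primary tumor sections were set against each other in edgeR (quasi-likelihood, p-values adjusted after Benjamini and Hochberg over 15267 genes), where 1139 (7.46%) of these genes passed an adjusted p of 0.05. Of the 9 members, 0 passed (1 at an unadjusted p under 0.05, and 1 by DESeq2). Cd3d had a log2 fold change of 1.92 in the lung (SE 0.61, unadjusted p = 0.0116, adjusted p = 0.102) from means of 29.1 ± 21.9 CPM in the lung and 9.9 ± 0.628 CPM in the primary tumor (SD, n = 2). Cd8a was lower in the lung by a log2 fold change of -1.83 (SE 1.09, adjusted p = 0.356), from 1.71 ± 0.637 against 7.59 ± 0.865 CPM. Cd3e had a log2 fold change of 0.36 (SE 0.66, adjusted p = 0.809). The median of the 9 members was -0.66 against 0.00 for all genes tested, with 3 members above 0 and 6 below. These values carry the background of the primary tumor of mouse B. With the receptor median of each section taken off the mean levels, the log2 ratio of lung to primary tumor was 2.20 for Cd3d, 1.02 for Cd4, 0.58 for Nkg7, 0.36 for Cd3e, -0.09 for Cd28 and -1.36 for Cd8a. The primary tumor means of Eomes, Tbx21 and Foxp3 were then below 0 through mouse B and gave no ratio, while mouse A alone had 2.0, 0.296 and 0.369 CPM, so the balance of directions among the members depended on that background. Adjusted p-values of the members ran from 0.102 to 0.987.

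The call of Cd3d depended on the fit and on single sections. With the mouse as a block its log2 fold change was 1.62 (adjusted p = 0.0421), with DESeq2 it was 1.85 (adjusted p = 0.0384), and over all 11 edgeR and DESeq2 fits its adjusted p ran from 1.41e-06 to 0.877. The log2 fold change was 0.79 without the lung of mouse A and 2.80 without the lung of mouse B. It was 2.32 without the primary tumor of mouse A and 1.71 without that of mouse B. Each of these fits sets 1 section against 2, takes its spread from the tissue that keeps both and assumes that the lone section varies alike. Their p-values, which set both ends of the range above, are no firm tests. The direction of Cd3d was the same in all of these, and it was higher in the lung in 2 of 2 mice. Neutrophil genes (6 genes, S100a9 among them) moved with it, at 76957 CPM (mouse A) and 31257 CPM (mouse B) in the lungs against 2469 and 10855 CPM in the primary tumors, and their part in the result was not tested. With libraries scaled by their totals alone, the median of all genes in this comparison moved to -0.31, Cd3d was at 1.54 and Cd3e at -0.01.

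Of 85 further genes on 6 lists of T and NK cell function, 73 were tested between the tissues, with a median log2 fold change of -0.68. Of these 1 was called higher and 3 lower in the lung, beside 7.46% of all genes. Tnfrsf9 (4-1BB, a costimulatory receptor of activated T cells) fell by 4.21 on the log2 scale (SE 0.70, adjusted p = 0.00993), from 120 and 112 CPM in the primary tumors to 1.26 and 9.33 CPM in the lungs. Cd274 (PD-L1, the ligand of the checkpoint receptor PD-1) fell by 2.49 (SE 0.44, adjusted p = 0.0120), from 218 and 113 to 23.7 and 24.9 CPM. Both genes are known from other cells as well as T cells, and the spots do not say which cells carried them. The 4T1 genes moved with them, at 4416 and 5126 CPM in the primary tumors against 97.3 and 1139 CPM in the lungs, and their part in these changes was not tested. Scaling by totals alone ended the call of Tnfrsf9 (adjusted p = 0.0507). Among 18 tested genes of the receptor complex and its proximal signaling, 0 passed by edgeR and the median was 0.46. Among 15 NK cell receptors and effectors 0 passed, with a median of -1.48. Each of the 21 measured genes of this list was below the 95th percentile of the receptor genes in the primary tumor of mouse B, so that median leans on values within background. Among the 14 costimulation and checkpoint receptors 1 fell (Tnfrsf9, median -0.96), a share near the 7.46% of all genes called. In the primary tumor of mouse B, Havcr2 and Tnfrsf9 alone on this list were above that percentile. On the receptor complex list Lcp2 alone was above it. The medians of both lists thus lean on values within background as well.

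Depth within a section showed how far the CD3 UMIs followed the tissue RNA. Spots were split into 4 equal depth classes, and the deepest was set against the shallowest. In the primary tumor of mouse A, UMIs of Cd3e plus Cd3d per spot were 43.9 times higher in the deepest class, beside 38.4 times more UMIs and 2.15 times more receptor UMIs per spot. In the lung of mouse A they were 3.62 times higher beside 3.57 times more UMIs. CD3 transcripts thus kept a nearly even share of the RNA in both sections of mouse A. In the primary tumor of mouse B they were 1.88 times higher beside 11.2 times more UMIs, and receptor UMIs were 0.932 times as many, so that CD3 took a smaller share of the RNA in the deepest spots. In the lung of mouse B they were 1.29 times higher beside 4.83 times more UMIs, and the CD3 level was 36.9 CPM in the shallowest class and 9.87 CPM in the deepest. The receptor UMIs in that lung were 2.18 and 2.06 per spot in these classes.

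**Figure D3:**
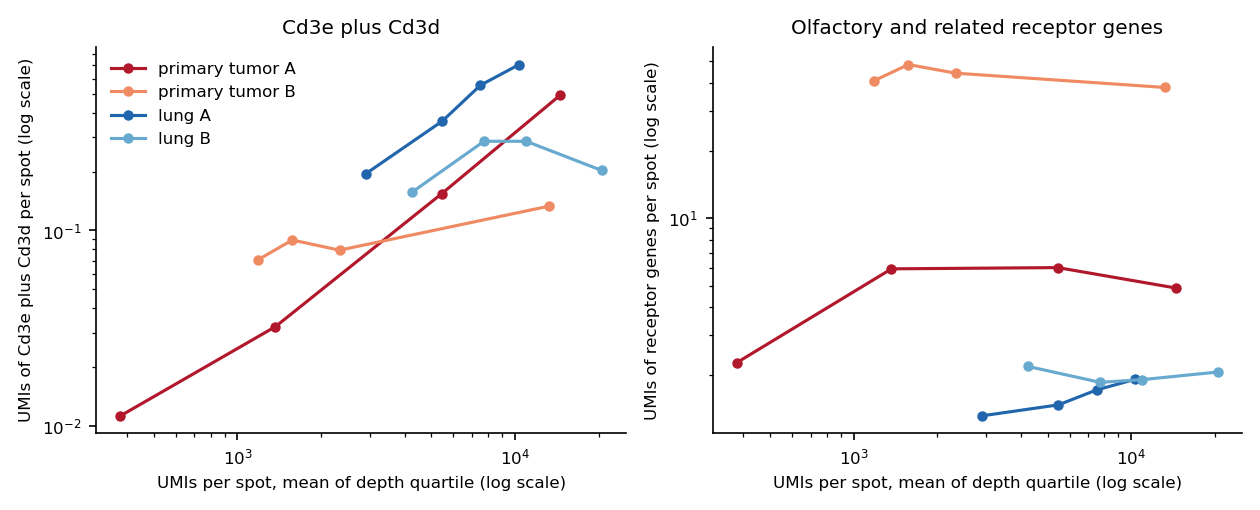
UMIs per spot of Cd3e plus Cd3d (left) and of 1191 receptor genes (right) in the 4 depth classes of each section, against the mean UMIs per spot of the class (all axes log). CD3 UMIs climb with depth in both sections of mouse A, while receptor UMIs per spot in the deepest class are 0.932 to 2.15 times those in the shallowest.

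On the tissue, the spread of CD3 UMIs differed between the sections. In square tiles of 8 array positions with at least 20 spots, the level of Cd3e plus Cd3d ran from 0 to 128 CPM over 43 tiles of the primary tumor of mouse A, with a median of 20.6 CPM. It ran as widely in the primary tumor of mouse B, from 0 to 118 CPM over 44 tiles, where both genes were within background, so the range alone does not show gathering. The tile with the most CD3 UMIs in the primary tumor of mouse A held 15.1% of them and 6.56% of all UMIs. Tiles of the lung of mouse A were much more even, from 36.7 to 92.2 CPM over 30 tiles, and those of the lung of mouse B ran from 1.62 to 60.8 CPM over 49 tiles. Around spots with a CD3 UMI, the adjoining spots of the primary tumor of mouse A were at 42.7 CPM, against 27.6 CPM around the other spots, a ratio of 1.54. The same ratio was 1.01 in the lung of mouse A, 1.19 in the lung of mouse B and 0.838 in the primary tumor of mouse B. Spots next to a CD3 spot thus had a higher CD3 level in the primary tumor of mouse A and, by less, in the lung of mouse B. These ratios are descriptions with no test.

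**Figure D4:**
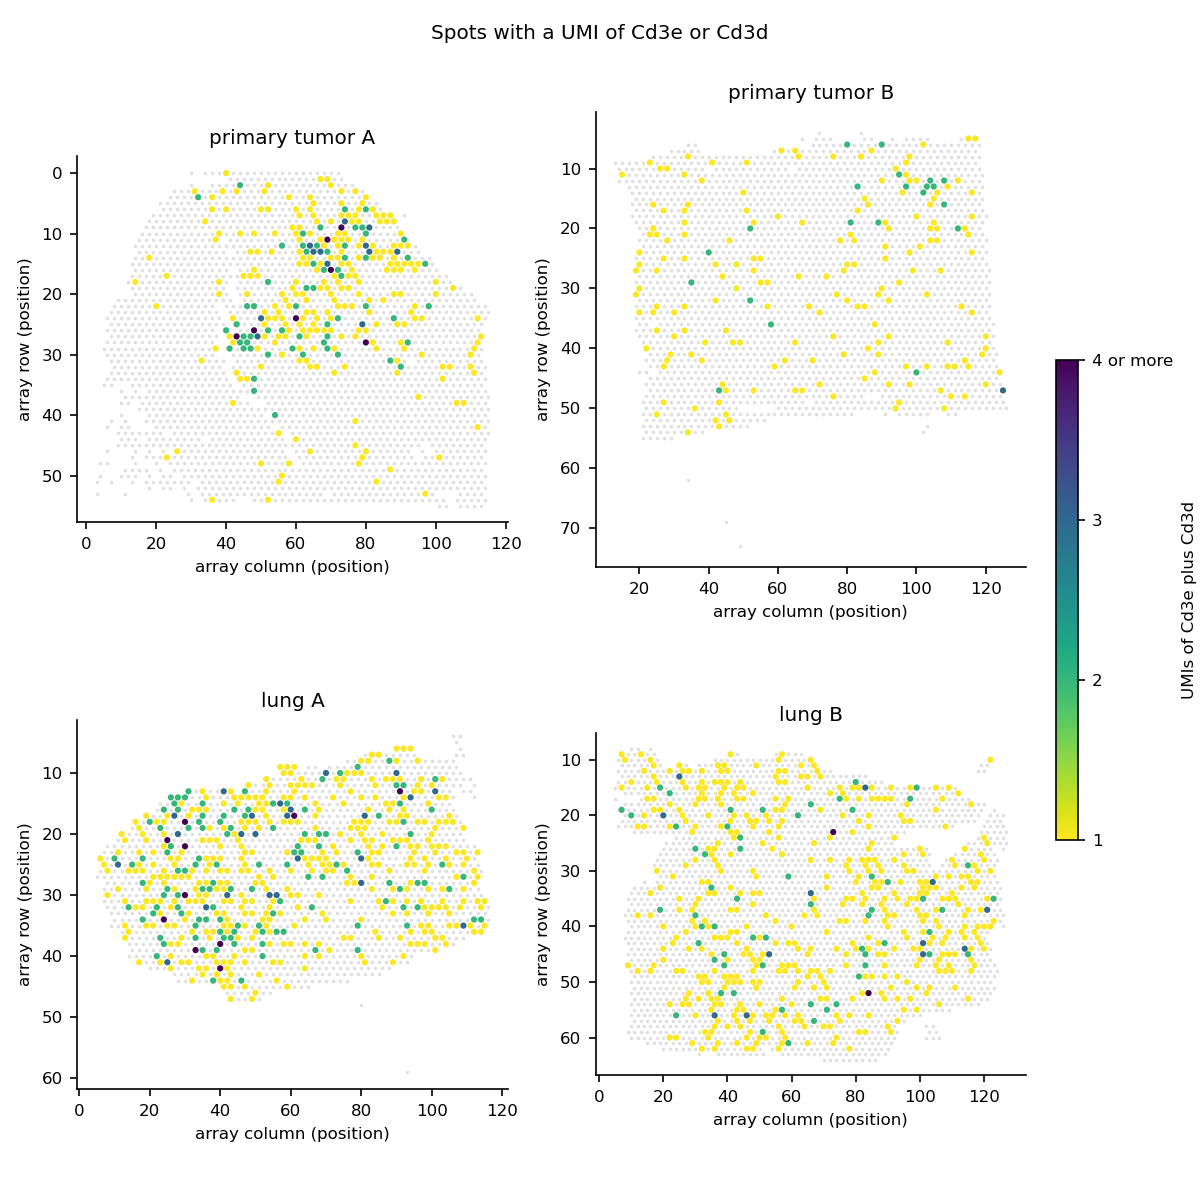
Spots of each section by array column and row, with spots that hold a UMI of Cd3e or Cd3d colored by their number of UMIs and all other kept spots in gray. CD3 UMIs of the primary tumor of mouse A lie mostly in the upper middle of the section, without correction for depth, which is 38.4 times higher in the deepest than in the shallowest spots of that section, while the 572 such spots of the lung of mouse A are spread over the whole section.

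Spots with Cd3e were also looked at for the other members. In the primary tumor of mouse A, Cd8a was found in 16.9% (12.3 to 22.3) of 231 spots with Cd3e and in 2.83% (2.19 to 3.6) of those without. Cd3d was found in 14.3% and 3.98%, Cd4 in 11.7% and 2.39%, and Nkg7 in 10.4% and 2.26%. Spots with Cd3e were deeper there, with a median of 11622 UMIs against 2188, and the part of depth in these shares was not tested. In the lung of mouse A, at medians of 7698 and 6313 UMIs, Cd3d was found in 32.0% (26.1 to 38.2) of the spots with Cd3e and 22.7% (20.6 to 25) of the others, and Eomes in 4.15% (2.01 to 7.50) and 0.893% (0.476 to 1.52). For the other 6 members the intervals overlapped there. The lung of mouse B, at medians of 10488 and 9019 UMIs, gave 6.33% (3.51 to 10.4) and 1.72% (1.25 to 2.30) for Nkg7. For the other 7 members its intervals overlapped, with Cd3d at 16.7% and 13.2% and Foxp3 at 0% (up to 1.66%) and 0.664%. In the primary tumor of mouse B, Cd8a was found in 3.57% (0.982 to 8.89) and 3.14% (2.46 to 3.95), so its intervals overlapped. Cd3d was found there in 8.04% (3.74 to 14.7) and 3.81% (3.06 to 4.68), and Nkg7 in 5.36% (1.99 to 11.3) and 1.86% (1.34 to 2.5), with overlapping intervals.

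To place the members within each tissue, the 25% of spots with the largest share of UMIs on a list of genes were summed for each mouse and set against the other spots of the section by edgeR, with the mouse as a block. The first list was B cells (12 genes), a sign of lymphoid tissue in the lung. In the B cell-rich spots of the lung of mouse B, Cd3e was at 12 CPM (70 UMIs) against 6.72 CPM (164 UMIs) elsewhere, and Cd3d at 20.9 against 12 CPM. In the lung of mouse A both genes were level, at 25.8 against 24.5 CPM for Cd3e and 44.2 against 44.7 CPM for Cd3d. Over both mice the log2 fold changes were 0.49 for Cd3e (SE 0.24, adjusted p = 0.333) and 0.43 for Cd3d (SE 0.19, adjusted p = 0.287). Other marker genes also differed between these classes in the lung of mouse B, with neutrophil genes at 48387 against 27156 CPM, alveolar genes at 9260 against 6315 CPM and 4T1 genes at 645 against 1258 CPM. The same lists were at 80248 against 75954, 12650 against 12130 and 60.8 against 108 CPM in the lung of mouse A, and their part in the result was not tested. The rich spots were also shallower, with a median of 7672 against 9981 UMIs in mouse B and 6116 against 6674 in mouse A. The part of depth was not tested either. All 8 members tested were above 0 (median 0.41 against 0.00 for all genes), although 3 of them (Cd4, Cd8a and Nkg7) were below 0 with list genes scaled to equal weight, and 0 passed (1 at an unadjusted p under 0.05, 0 of 5 by DESeq2), beside 0.64% of 13134 genes. Of the 61 further list genes tested, 0 passed.

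Spots rich in MHC class II (Cd74, H2-Aa, H2-Ab1 and H2-Eb1), genes of antigen presentation, were compared next in the lung. The spots do not say which cells carried these genes. Of 13278 genes 16.3% passed, and 0 of the 7 members tested (1 at an unadjusted p under 0.05, and DESeq2 gave the members no adjusted p). Cd3d was at 42.4 CPM in the rich spots against 45.4 CPM in the others in mouse A and at 9.87 against 15.0 CPM in mouse B, a log2 fold change of -0.42 (SE 0.16, adjusted p = 0.0679). Cd3e was at 28.8 against 23.4 CPM in mouse A and at 9.34 against 7.20 CPM in mouse B (log2 fold change 0.25, SE 0.21, adjusted p = 0.494). The ratio of Cd3d to Cd3e was thus 1.47 in the rich and 1.94 in the other spots of mouse A, and 1.06 (0.753 to 1.48) and 2.08 (1.72 to 2.52) in mouse B. Neutrophil genes were also lower in the rich spots, at 60160 against 83012 CPM in mouse A and 17571 against 35850 CPM in mouse B, and their part was not tested.

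In the same spots, 64 further list genes were tested. Of these 9 were called higher and 3 lower, a share near the 16.3% of all genes called. Cxcl9 and Cxcl10, chemokines that draw T cells through CXCR3, rose by log2 fold changes of 2.08 (SE 0.43, adjusted p = 0.000260) and 1.95 (SE 0.13, adjusted p = 7.80e-18). Cxcl10 was at 72.3 against 20.3 CPM in mouse A and at 102 against 23.0 CPM in mouse B, while Cxcl9 in mouse A rested on 3 and 6 UMIs. Xcl1, a chemokine made by NK and CD8 T cells, rose by 1.99 (SE 0.54, adjusted p = 0.00639) on 10 against 4 and 13 against 12 UMIs. Cd226, an activating receptor of NK and T cells, fell by 1.31 (SE 0.38, adjusted p = 0.0111), and Lcp2, an adaptor of T cell receptor signaling that myeloid cells also use, by 0.49 (SE 0.11, adjusted p = 0.000596). With libraries scaled by their totals alone Cxcl10 kept its call and Cxcl9 (adjusted p = 0.0758), Xcl1 (0.0806), Lcp2 (0.0905) and Cd226 (0.106) lost theirs. Cd226 kept its call in 1 of 5 other fits, and its adjusted p in them ran from 0.00509 to 1.00. The chemokines therefore rose in spots where no member passed the test. Other marker genes were also higher in these spots in both mice, with macrophage genes at 645 against 449 CPM (mouse A) and 1048 against 880 CPM (mouse B), fibroblast genes at 1411 against 738 and 2125 against 1772 CPM, and 4T1 genes at 207 against 57.7 and 1380 against 1058 CPM. Their part in the rise was not tested.

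Spots rich in the 4T1 genes had a lower Cd3d level in both lungs, which did not pass the test. In the lung of mouse B these spots held 4T1 genes at 2087 CPM and alveolar genes at 2628 CPM, against 537 and 9587 CPM in the others. In the lung of mouse A they held 4T1 genes at 348 CPM and alveolar genes at 11385 CPM, against 13.2 and 12542 CPM, so they were mostly lung tissue and cannot be read as metastatic foci. Cd3d was at 36.5 CPM (29.8 to 44.3) in the rich spots against 47.3 (42.8 to 52.2) in the others of mouse A, and at 4.17 (3.09 to 5.51) against 19.7 (17.8 to 21.9) in mouse B. Over both mice the log2 fold change was -1.36 (SE 0.54, adjusted p = 0.348). Cd3e was at 27.9 against 23.8 CPM in mouse A and at 4.85 against 9.57 CPM in mouse B, so its directions were opposed (log2 fold change -0.45, SE 0.41, adjusted p = 0.546). Per spot the lung of mouse B held 82.0 UMIs of Cd3e per 1000 rich spots and 84.9 per 1000 others, but 70.5 and 175 UMIs of Cd3d. The ratio of Cd3d to Cd3e was 0.860 (0.575 to 1.28) in the rich spots and 2.06 (1.72 to 2.48) in the others of mouse B, and 1.31 (0.964 to 1.78) and 1.99 (1.67 to 2.37) in mouse A. Neutrophil genes were at 6573 against 46938 CPM in mouse B and 63727 against 81397 CPM in mouse A, and their part in these ratios was not tested. Median depth was 15942 against 8152 UMIs per spot in mouse B and 6538 against 6590 in mouse A. Its part in the CD3 levels was not tested. In this comparison edgeR called 0 of 13532 genes (0%), with 1767 at an unadjusted p under 0.05 and 184 called by DESeq2. Of the 8 members tested 0 passed, and 0 at an unadjusted p under 0.05.

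In the primary tumor, Cd3e was the one member that passed a test. In spots rich in MHC class II it was at 36.3 CPM (30.6 to 42.7) against 15.2 (12.8 to 17.9) in mouse A, and at 12.1 (8.59 to 16.5) against 10.3 (8.16 to 12.8) in mouse B. The log2 fold change was 0.83 (SE 0.20, adjusted p = 0.00803), higher in 2 of 2 mice, while 0.752% of 18749 genes passed and 1 of 8 members tested did. It rested on mouse A, since mouse A alone gave 1.25 and mouse B alone 0.24, with the mouse B values inside the background of that section. Cd8a was at 14.0 against 5.77 CPM in mouse A and at 6.51 against 7.18 CPM in mouse B (log2 fold change 0.63, SE 0.33, adjusted p = 1.00). Cd3d was at 15.0 against 8.39 CPM in mouse A and at 7.13 against 10.4 CPM in mouse B, and Cd4 at 10.0 against 4.93 CPM and at 4.34 against 7.83 CPM. Nkg7 was higher in both mice, at 10.0 against 4.41 CPM in mouse A and 4.96 against 4.31 CPM in mouse B. Eomes was lower in mouse A, at 1.75 against 2.94 CPM, and higher in mouse B, at 4.65 against 4.31 CPM. Tbx21, Foxp3 and Cd28 were higher in mouse A and lower in mouse B. Cd3e, Cd8a, Cd3d and Cd4 were thus all higher in the rich spots in mouse A, and of them Cd3e alone in mouse B. The call was lost without the block (adjusted p = 1.00) and with each list gene scaled to equal weight in choosing the spots (log2 fold change 0.75, adjusted p = 0.0597), while the adjusted p was at most 0.0398 in the other fits that gave one. Macrophage genes (6 genes, C1qa among them) were higher there too, at 2188 against 1392 CPM in mouse A and 517 against 319 CPM in mouse B, and receptor genes lower, with a median of 0.25 against 0.734 CPM in mouse A and 5.89 against 7.05 CPM in mouse B. The part of either in the result was not tested.

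Among the 69 further list genes tested in this comparison, 4 were called higher and 1 lower, beside 0.752% of all genes. Cd3g rose with Cd3e by a log2 fold change of 0.75 (SE 0.19, adjusted p = 0.0158), at 39.5 against 20.8 CPM in mouse A and 13.6 against 9.40 CPM in mouse B. Cxcl10 rose by 0.92 (SE 0.16, adjusted p = 3.16e-06). With list genes scaled to equal weight the call of Cd3g was lost (adjusted p = 0.245). The rise of Cxcl10 was therefore shared by the MHC class II-rich spots of both tissues.

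In spots rich in fibroblast genes (7 genes) no member passed the test. Cd3e was at 21.7 against 21.3 CPM in mouse A and at 11.4 against 10.7 CPM in mouse B, with a log2 fold change of 0.01 (SE 0.18, adjusted p = 0.997). Of 18797 genes 0.559% passed, and 0 of the 8 members tested (0 at an unadjusted p under 0.05, 0 of 5 by DESeq2). Cd28 was at 4.70 against 3.55 CPM in mouse A and at 13.0 against 9.46 CPM in mouse B (log2 fold change 0.41, SE 0.28, adjusted p = 0.868). In spots rich in hypoxia genes (7 genes, Car9 among them) all 7 members tested had values below 0, with a median of -0.62 against -0.10 for all genes, although Nkg7 was at 0.14 with list genes scaled to equal weight. Cd3e was at 15.5 against 22.6 CPM in mouse A and at 7.40 against 12.6 CPM in mouse B (log2 fold change -0.62, SE 0.23, unadjusted p = 0.00675, adjusted p = 0.650). Cd3d was at 5.75 against 11.3 CPM in mouse A and at 6.85 against 10.8 CPM in mouse B (log2 fold change -0.75, SE 0.34, adjusted p = 1.00). Both genes were lower in these spots in 2 of 2 mice, but 0 of the 7 members passed (2 at an unadjusted p under 0.05, 0 of 7 by DESeq2), beside 0.0819% of 18307 genes. The receptor median was 4.38 against 7.74 CPM in mouse B, lower in the same direction as the members, and 0.885 against 0.532 CPM in mouse A, in the opposite direction.

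**Figure D5:**
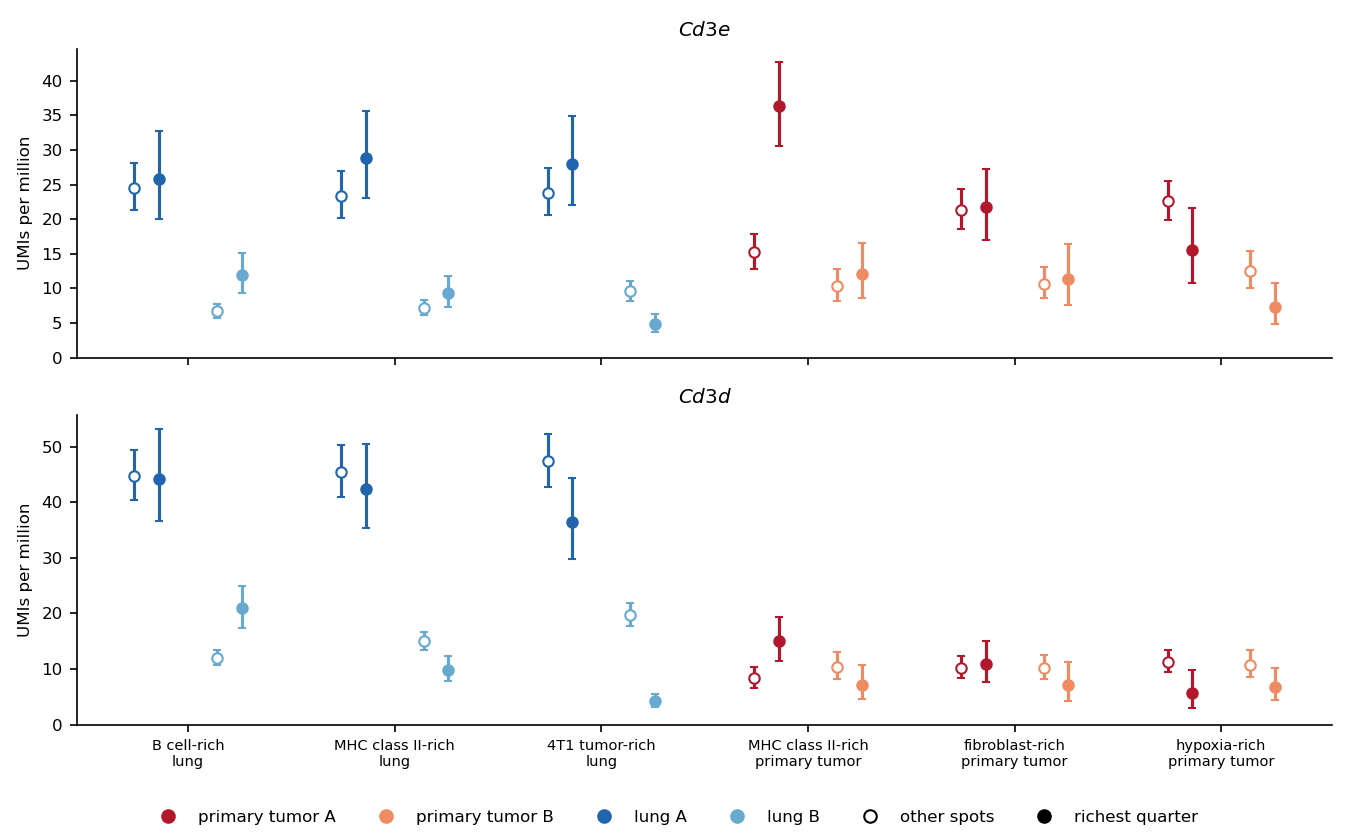
Level of Cd3e (top) and Cd3d (bottom) in CPM in the richest 25% of spots (filled) and the other spots (open) of each section for 6 gene lists, with 95% Poisson intervals. Cd3e is at 36.3 against 15.2 CPM in the MHC class II-rich spots of the primary tumor of mouse A, and Cd3d at 4.17 against 19.7 CPM in the 4T1 tumor-rich spots of the lung of mouse B.

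Whether the MHC class II contrast of the members differed between the tissues was tested by an edgeR interaction over the sums of rich and other spots, with the section as a block, a test added after the data were seen. It passed for 2.39% of 19015 genes and for 0 of the 8 members tested (2 at an unadjusted p under 0.05). Cd3d and Cd3e had differences of -0.90 (SE 0.29, adjusted p = 0.0627) and -0.83 (SE 0.27, adjusted p = 0.0758) on the log2 scale, lung less primary tumor, where the median of all genes was -0.19. The call of Cd3e in the primary tumor alone is therefore not shown to be particular to that tissue.

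Genes whose level followed Cd3e plus Cd3d over tiles of 8 positions were ranked by the lower of the 2 mice's correlations on the log scale, over 30 and 49 tiles in the lungs and 43 and 44 tiles in the primary tumors. In the lung these were Relt, Spata13, Cbr3, Dcaf11 and Slfn2, with a lower correlation of 0.546 to 0.620 among 8008 genes. In the primary tumor they were Hmgn2, N4bp2, Esco2, Dixdc1 and Ciita (0.455 to 0.506 among 8052 genes), the last being the gene of the master regulator of MHC class II. Tiles share a library and its depth, so the correlations are descriptions. With tiles of 12 positions, 0 of the 5 lung genes and 1 of the 5 primary tumor genes (Esco2) were again among the leading 5, so these names depend on the size of the tile.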

How the data were processed

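The authors deposited raw UMI counts of 19465 genes per spot with spot positions, as Space Ranger 2.0.0 wrote them on mm10, without normalization. No sample column was left unmapped. A spot entered if over 200 genes were detected in it (9339 of 9445), and sections share 1458 to 2030 spot barcodes because slide areas carry the same barcode set. Counts were summed per section or per class of spots and tested in edgeR 4.0.16 under R 4.3.3 by its quasi-likelihood method, after filterByExpr and TMM scaling, with p-values adjusted after Benjamini and Hochberg over all genes tested and called at 0.05, with DESeq2 1.42.0 as an alternative. CPM are UMIs per 1000000 UMIs of the section or class. Lung against primary tumor was fitted without a block, and comparisons of spots within a tissue with the mouse as a block, since both sums come from 1 animal. Deviations of sums of the same mouse had correlations of -0.293 for lung against primary tumor and of 0.786 to 0.922 within tissues, where both sums come from 1 section. The pairing of lung and primary tumor rests on the mouse numbers in the labels, and the correlation does not show it.

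P-values of lung against primary tumor rest on the spread between the 2 sections of a tissue. Those of the spot classes rest on how the difference between classes varied over 2 mice. On simulated counts with 200 genes changed, 86% of genes changed 2-fold and 100% of those changed 4-fold were recovered for lung against primary tumor (15267 genes, 9 unchanged genes called), and 83% and 98.0% for B cell-rich lung spots (13134 genes, 8 unchanged genes called). The simulation gave all sums the same mean levels apart from the changed genes, a small spread equal for all genes and no difference between mice. It therefore does not show what share of real changes would be recovered here. Named genes are the 9 members, in each comparison up to 3 called list genes with the largest rise and up to 3 with the largest fall, and 5 genes of like pattern per tissue. Of 85 list genes 81 were measured, and the others were not analysed here. Some genes of these lists are not reported here. Members, gene lists and spot classes were chosen with earlier results of these data known. Thinning drew 1000 UMIs per spot with a fixed seed. Figures and the remaining values were made in Python 3.11.15 with numpy 2.4.6, scipy 1.17.1 and matplotlib 3.10.9. No doublet caller was run and no cell-type makeup was estimated. Settings tried were other tools, filters, scalings, blocks, class sizes and scores, and each section or mouse left out.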

Additional observations from a re-analysis of the deposited data

Results flagged for a closer look

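The contrast between MHC class II-rich and other spots differed between lung and primary tumor for 2 of the 76 tested genes of the T and NK cell lists, a share near the 2.39% of all genes called, by the edgeR interaction (Benjamini-Hochberg adjustment over 19015 genes). The log2 fold change of Cxcl10, a chemokine that draws T cells, was larger in the lung by 0.79 (SE 0.21, adjusted p = 0.0143). It was at 72.3 against 20.3 CPM and 102 against 23.0 CPM in the rich and other spots of the lungs of mice A and B, and at 90.3 against 39.3 CPM and 24.8 against 17 CPM in those of the primary tumors. Lcp2, an adaptor of T cell receptor signaling, had a difference of -0.72 (SE 0.19, adjusted p = 0.0171), with 207 against 252 CPM and 83.2 against 119 CPM in the lungs and 105 against 74.8 CPM and 48.7 against 70.7 CPM in the primary tumors. The primary tumor of mouse B, with its high receptor background, enters both differences.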

How the results depend on the processing

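Of 435 member fold changes under another setting, 52 had the opposite sign. Of these, 22 were among 92 values of a single mouse within a tissue, which have no test, and 30 among the other 343. Between lung and primary tumor, 0 members were called, and 1 (Cd3d) with DESeq2, without the filter on low counts, with the replicate block (log2 fold change 1.62) and with crossed pairing. Leaving out single sections gave 0 to 1 members, and log2 fold changes of -0.78 to 1.28 for Cd3e, -0.82 to 1.16 for Cd4, -1.39 to 0.90 for Foxp3 and -1.68 to 0.23 for Cd28. Scaling by totals alone gave -0.0071 for Cd3e and -0.10 for Cd4, the replicate block -0.013 for Cd4, crossed pairing -0.015 for Cd4 and no filter 0.14 for Foxp3. Without the filter 1 member (Cd3d) was called in 4T1-rich lung spots, against 0 with it. In MHC class II-rich primary tumor spots the call of 1 member became 0 without the replicate block and with scaled list genes. Scaled list genes also gave -0.17 for Cd4, -0.32 for Cd8a and -0.41 for Nkg7 (B cell-rich lung), 0.067 for Cd8a (4T1-rich lung), 0.45 for Cd4 and 0.080 for Cd8a (fibroblast-rich) and 0.14 for Nkg7 (hypoxia-rich). The richest 10% of spots gave -1.47 for Foxp3 and 0.15 for Cd28 (4T1-rich lung), 0.14 for both (MHC class II-rich primary tumor), and -0.23 for Cd3e, 0.036 for Cd3d, 0.46 for Eomes and -0.91 for Nkg7 (fibroblast-rich). Cd28 was at -0.0026 in B cell-rich lung spots without the replicate block and at 0.0097 in MHC class II-rich primary tumor spots scaled by totals. For none of these was the cause tested.

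Counts of genes called moved more. Between the tissues 1139 genes passed (963 higher and 176 lower in the lung), against 2644 with DESeq2 (1436 and 1208), 2022 with no filter, 1817 with the block, 2565 with crossed pairing, 328 scaled by totals and 883 to 6604 without single sections, 6604 being without the primary tumor of mouse A. Without the block 0 genes passed in every comparison of spots. B cell-rich spots gave 84 genes, 355 with no filter, 20 with DESeq2 and 161 scaled by totals. MHC class II-rich lung spots gave 2169 (996 higher, 1173 lower), 201 higher and 427 lower with DESeq2, 893 with scaled list genes and 36 by totals (35 and 1). The 4T1-rich spots gave 0, 1452 with no filter and 184 with DESeq2. MHC class II-rich primary tumor spots gave 141, 34 with DESeq2, 283 by totals and 63 with scaled list genes. Fibroblast-rich spots gave 105 (68 and 37), 15 with DESeq2, 25 in the richest 10% and 109 by totals (85 and 24). Hypoxia-rich spots gave 15, 129 by totals, 74 with scaled list genes and 0 in the richest 10%. DESeq2 gave no adjusted p for the members in MHC class II-rich spots and 4T1-rich lung spots. The members gave 3 to 496 UMIs per section, in 2 mice. How small a difference could be detected at these counts was not tested.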

Other observations

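Genes of NK cell receptors gave widely differing numbers of UMIs. Klrb1c (NK1.1) and Klra4 were at 0 UMIs in all 4 sections. Since the median receptor gene had 72 UMIs in the primary tumor of mouse B while these genes had 0, no limit on their expression is given. Ncr1, the gene of the NK cell receptor NKp46, gave 30, 29, 56 and 23 UMIs in the primary tumor A, lung A, primary tumor B and lung B. Since the sections differ in total UMIs, levels are given too, here 2.22, 2.61, 5.14 and 0.761 CPM. Klrc1, which encodes NKG2A, gave 268, 41, 98 and 42 UMIs. Ccl5, a chemokine of effector T cells, NK cells and macrophages, gave 505, 511, 74 and 690 UMIs (37.3, 45.9, 6.80 and 22.8 CPM). Of genes carried by naive T cells, Ccr7 gave 47, 222, 63 and 130 UMIs and Lef1 31, 167, 106 and 111 UMIs in the same order. No difference in these genes passed the test between lung and primary tumor.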
